A study of Mus musculus with 7 samples.

Results

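The genes described here encode the NF-κB transcription factor subunits and the kinases of the IKK family, 10 genes chosen by symbol: Nfkb1, Nfkb2, Rel, Rela and Relb for the Rel family, Chuk, Ikbkb and Ikbkg for the IKK complex, and Ikbke and Tbk1 for the IKK-related kinases. They were 10 of the 48440 genes in the table of LPS-stimulated macrophages and 10 of the 55352 genes in the table of AAV-transduced macrophages, and all 10 passed the filter on low values in both. They were chosen as the members of a known pathway, by name and not by a threshold on a measured value, though with earlier results of these data known. RNA was sequenced from 7 samples of bone marrow-derived macrophages (BMDMs), which were differentiated from the marrow of wild-type C57BL/6 mice with M-CSF. In the first experiment BMDMs of the genotype labelled WT were left without treatment (0 h) or received LPS, the endotoxin of Gram-negative bacteria, at 100 ng per mL. Each of the times 0 h, 2 h and 4 h has 1 library. In the second experiment, cells received an adeno-associated virus (AAV) over 48 h, carrying GFP or Shisa3 under the CAG promoter, which is active in most cell types, with 2 samples per group, and no LPS is named for them. The labels give no age or sex for any sample and do not say that the samples came from separate cultures or mice, so the p-values below measure the spread between these samples, which may be technical.

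NF-κB factors are dimers of the Rel family. Rela (p65), Relb and Rel (c-Rel) carry transactivation domains, whereas Nfkb1 and Nfkb2 encode the precursors p105 and p100, which are processed to the DNA-binding subunits p50 and p52 and which also hold other subunits in the cytoplasm. Upon Toll-like receptor engagement the IKK complex, made of the kinases IKKα (Chuk) and IKKβ (Ikbkb) and the scaffold NEMO (Ikbkg), phosphorylates the IκB inhibitors and frees the dimers, while TBK1 and IKKε (Ikbke) phosphorylate interferon regulatory factors. Much of this control works on proteins, by phosphorylation, degradation and transport, and none of that is measured in RNA levels.

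Several of these genes are textbook NF-κB targets, so their upstream sequences were read from RefSeq (GRCm38.p6), where 7 of the 10 had an entry, with 12 start sites in all. Nfkb1, Relb and Ikbkb had no entry. The 250 bases before each start were searched on both strands for the consensus κB site, the decamer bound by NF-κB dimers. Such a decamer lay in 3.90% of the 32851 windows of all genes. By gene, 4.46% of all genes held one in some window. Among the members it was found in 4 of the 12 windows, upstream of 2 of the 7 genes, Nfkb2 and Rel, the only members with a match. The Rel window and the Nfkb2 window that lies outside Nfkb2 exons are shown whole, and of the other 2 Nfkb2 windows, which overlap annotated exons, only the matched letters are given. Neither RNA table bears on whether the letters are bound, and no match says only that these letters were not in the window. The windows of Rela, Chuk, Ikbkg, Ikbke and Tbk1 held no match. A looser pattern, GGGNNNNNCC, lay in 9 of the 12 member windows and in 45.8% of all windows. In the Rel window (chr11:23770970-23771219, minus strand) the capitals mark overlapping matches between 92 and 82 bases before the start, and in the window of one Nfkb2 start (chr19:46305445-46305694, plus strand) they mark a match on the opposite strand, 236 to 227 bases before the start. In GENCODE M21 the latter window lies within Nfkb2 but outside its exons, and it overlaps an exon of the antisense gene AC114539.1.
Rel: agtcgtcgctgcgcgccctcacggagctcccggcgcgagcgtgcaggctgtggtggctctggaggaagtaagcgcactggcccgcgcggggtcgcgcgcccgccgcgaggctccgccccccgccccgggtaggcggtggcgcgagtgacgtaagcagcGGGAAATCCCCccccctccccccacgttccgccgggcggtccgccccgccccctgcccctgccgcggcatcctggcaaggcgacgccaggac
Nfkb2: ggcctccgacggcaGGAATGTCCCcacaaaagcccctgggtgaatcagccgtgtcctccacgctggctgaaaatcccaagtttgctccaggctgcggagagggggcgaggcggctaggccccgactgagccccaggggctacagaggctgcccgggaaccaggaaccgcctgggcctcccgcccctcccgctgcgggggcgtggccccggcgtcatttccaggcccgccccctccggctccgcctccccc

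The other 2 Nfkb2 starts also had matches. One had GGGAATTCCC, 39 to 30 bases before the start, and GGGGCTTTCC, 11 to 2 bases before it, and the other had GGGACTTTCC, 225 to 216 bases before it. Each window counts once in these shares, however many matches it holds.

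The LPS values are read counts divided by 1 factor per library, and the reads recovered from them numbered 15588502, 7263258 and 32659392 for 0 h, 2 h and 4 h. The 2 h library was the shallowest. Relative to 0 h, the authors' values summed to 1.58 times as much at 2 h and 1.77 times at 4 h, and folds therefore depended on the scaling. Over the 17854 genes whose mean value reached 1, the median log2 change at 4 h was -0.04 in the authors' values and -0.82 with reads scaled to library totals (-0.05 and -0.70 at 2 h). Both scalings are given below for each member, and no test was possible with 1 library per time point. The markers of macrophages were present in every sample of both experiments, with 0 of 9 at 0. Of 7 T and NK cell genes, 3 or 4 were at 0 in each AAV sample, among them all 3 Cd3 genes. A change in RNA per cell and a change in the share of a cell type cannot be told apart in such samples.

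At 2 h of LPS, 7 of the 10 members were at least 2-fold higher than at 0 h in the authors' values, beside 20.5% of all genes, and the same count held at 4 h, beside 22.2%. With library totals it was 6 members at each time, beside 13.7% and 13.8%. The 5 Rel family genes and Ikbke were past 2-fold under both scalings and Tbk1 in the authors' values only. No member was 2-fold lower at either time, beside 24.7% and 23.6% of all genes (40.3% and 44.3% with library totals).

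Nfkb1 and Nfkb2 had the highest of the authors' values in the Rel family, which are not corrected for gene length. Nfkb1, whose p105 product is the precursor of p50, stood at 1874 before LPS, 16028 after 2 h and 15582 after 4 h, from 2914, 7340 and 28675 reads. Its value was higher by 8.55- and 8.31-fold (5.40- and 4.70-fold with library totals), so its level at 4 h was close to that at 2 h. Nfkb2, whose p100 product is the precursor of p52, stood at 1059 before LPS, 15179 after 2 h and 10667 after 4 h. Its value was higher by 14.3- and 10.1-fold (9.06- and 5.69-fold with library totals), the largest fold of the 10 members at both times under both scalings. At 2 h its log2 change ranked 353 from the top among the 17854 genes.

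The subunits with transactivation domains were highest at 2 h. Rela, the partner of p50 in the classical dimer, stood at 749 before LPS, 4609.7 after 2 h and 2868 after 4 h, 6.16- and 3.83-fold higher than at 0 h (3.89- and 2.16-fold with library totals). Rel, the c-Rel subunit of lymphoid and myeloid cells, stood at 518 before LPS, 2983 after 2 h and 1995 after 4 h, 5.76- and 3.85-fold higher (3.64- and 2.18-fold). Relb, the partner of p52, went from 459.9 before LPS to 4835 after 2 h and 2133 after 4 h, 10.5- and 4.64-fold higher (6.64- and 2.62-fold). All 3 were lower at 4 h than at 2 h, and so was Nfkb2, under each of the 4 scalings tried. Relb differed most, by -1.18 on the log2 scale (-1.34 to -1.12 over the scalings), and it was the 1 member past 2-fold between these times, beside 15.2% of genes that were lower and 17.9% that were higher (17.7% and 15.3% with library totals).

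**Figure D1:**
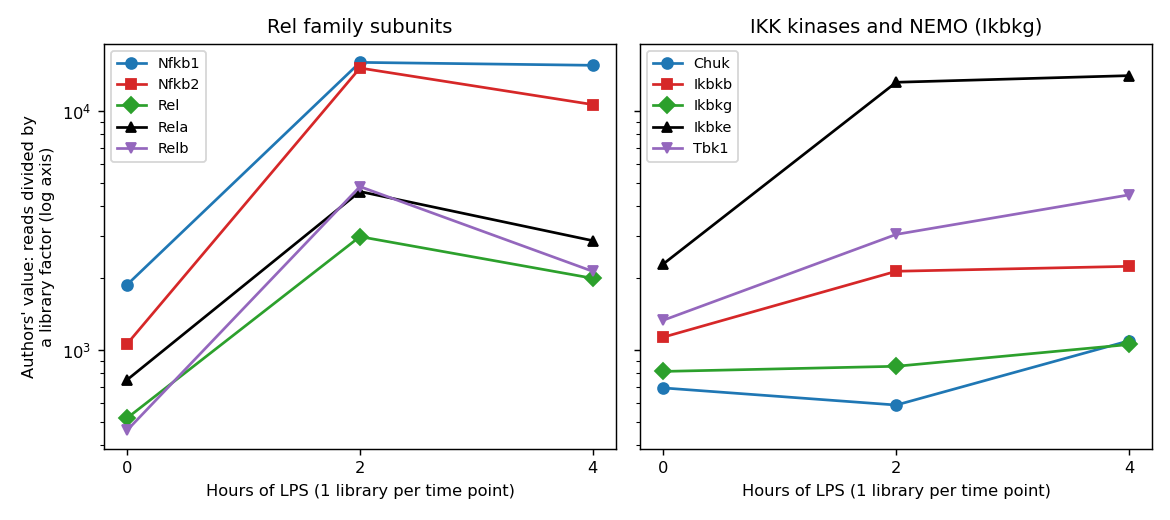
Authors' values (reads divided by a library factor, log axis) of the 5 Rel family genes (left) and of the kinases and NEMO (right) against hours of LPS, with 1 library per point and no error bar. Rela, Rel, Relb and Nfkb2 peak at 2 h, Tbk1 is highest at 4 h, and Chuk and Ikbkg differ least from 0 h.

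Among the kinases, both IKK-related genes were higher after LPS under every scaling, and in the authors' values they differed from 0 h by more than the genes of the classical complex. With library totals at 2 h, Chuk (-0.90) and Ikbkg (-0.59) differed by more than Tbk1 (0.53) on the log2 scale. Ikbke, also called IKKi for inducible, stood at 2292 before LPS, 13229 after 2 h and 14106 after 4 h. It was 5.77- and 6.15-fold higher than at 0 h (3.65- and 3.48-fold with library totals). Tbk1, its close relative, stood at 1332 before LPS, 3048 after 2 h and 4464 after 4 h, 2.29- and 3.35-fold higher (1.45- and 1.89-fold). Tbk1 was higher at 4 h than at 2 h under all 4 scalings, by 0.55 on the log2 scale in the authors' values.

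The genes of the IKK complex itself stayed under 2-fold in the authors' values and with library totals, though Ikbkb at both times and Chuk at 4 h passed it with each library centred on its median. Ikbkb, the kinase that phosphorylates IκB in the classical pathway, stood at 1131 before LPS, 2136 after 2 h and 2239.9 after 4 h, 1.89- and 1.98-fold higher (1.19- and 1.12-fold with library totals). Chuk, the kinase needed for p100 processing, stood at 693 before LPS, 587 after 2 h and 1092 after 4 h. Its log2 change was -0.24 at 2 h (95% counting interval -0.43 to -0.045) and 0.66 at 4 h, and with library totals it was -0.90 and -0.17, while centring gave 0.076 at 2 h and 1.03 at 4 h, so its direction turned with the scaling at both times. Ikbkg, the scaffold, stood at 812 before LPS, 854 after 2 h and 1054 after 4 h, a log2 change of 0.072 and 0.37, which became -0.59 and -0.45 with library totals, so its direction turned as well. Chuk and Ikbkg were higher at 4 h than at 2 h under all 4 scalings, by 0.89 and 0.30 in the authors' values.

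**Figure D2:**
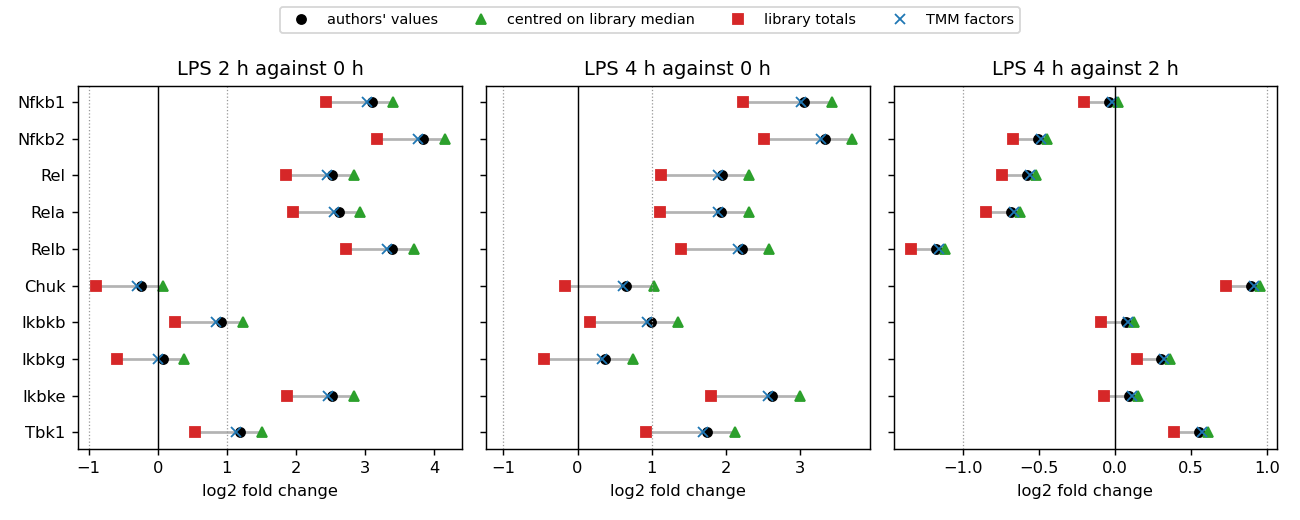
Log2 fold change of each member for the 3 pairs of time points under 4 scalings: the authors' values, libraries centred on their median, reads scaled to library totals and reads scaled by TMM factors; the grey line spans the scalings and dotted lines mark 2-fold. The 5 Rel family genes and Ikbke lie above 2-fold in the first 2 panels under every scaling, while Chuk and Ikbkg cross 0.

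Ratios of members within a library cancel the library factor and so do not depend on the scaling. The ratio of Nfkb2 to Rela changed by 1.22 on the log2 scale at 2 h and 1.40 at 4 h (counting interval 1.28 to 1.51), and that of Nfkb1 to Rela by 0.47 and 1.12 (1.01 to 1.22). The precursor genes were thus higher relative to Rela at both times. The ratio of Relb to Rela changed by 0.77 at 2 h and 0.28 at 4 h. The ratio of Rel to Rela changed by -0.10 (-0.26 to 0.07) and 0.01 (-0.13 to 0.15), within counting error at both times. Among the kinases, the ratio of Ikbke to Tbk1 changed by 1.33 and 0.88, that of Ikbke to Ikbkb by 1.61 and 1.64, and that of Chuk to Ikbkb by -1.16 (-1.38 to -0.93) and -0.33 (-0.46 to -0.20). Chuk was therefore lower relative to Ikbkb at 2 h whichever scaling is used. The intervals cover counting error and not the difference between cultures.

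Levels of different genes were compared per kilobase of exon, as reads per kilobase scaled to the same total in each library. At 0 h the order by this level was Tbk1 at 75.5, Ikbke at 56.4, Rela at 54.1, Nfkb2 at 51.2, Nfkb1 at 34.5, Chuk at 30.2, Relb at 26.3, Ikbkg at 22.2, Rel at 15.4 and Ikbkb at 13.1. At 2 h Nfkb2 led at 399, ahead of Rela at 181 and Ikbke at 177. At 4 h Nfkb2 at 306 was followed by Ikbke at 206 and Nfkb1 at 169.8. Chuk, Ikbkb and Ikbkg were the lowest 3 at both times, between 12.7 and 28.2. There is no spread to set neighbours apart, and exon lengths were taken over all annotated transcripts. Of the summed level of the Rel family, Nfkb2 made up 28.2% at 0 h, 42.5% at 2 h and 43.3% at 4 h, and Rela 29.8%, 19.3% and 17.4%.

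For each member past 2-fold, the genes with the closest pattern were those with the smallest distance over its log2 folds at 2 h and 4 h, among 8728 genes whose mean value reached 100. With 3 libraries this likeness rests on 2 numbers per gene. The nearest to Nfkb1 were Mt1, Gm42641 and Htra1, and the nearest to Nfkb2 were Sap30, Ccl24 and Gm37159. Rel and Rela both had Ptch1 and Ddhd1 among their nearest 3, and Rel was itself the second nearest to Rela (distance 0.0969). C5ar1 was the third gene near Rel. Relb lay nearest to Cd83, Fzd5 and Plscr1, Ikbke to Fgr, Ptpn1 and Dtx3l, and Tbk1 to Metap1, Il2rg and Vta1. No other member was among the nearest 3 of any member.

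The AAV comparison sets cells given the Shisa3 vector against cells given the GFP vector, with no LPS named for either. Levels are in TPM, a transcript abundance corrected for length and scaled to the same total in each sample, and AAV-GFP is named before AAV-Shisa3. Shisa3 itself measured 7.88 and 10.9 TPM with GFP and 12.3 and 17.8 TPM with Shisa3. The groups did not overlap, and the difference of 0.63 on the log2(TPM + 1) scale did not pass the test over all genes (SE 0.22, adjusted p = 0.138, limma). It passed with the replicate number as a block (adjusted p = 0.0287, limma), though the samples are known to share only that number. Without any 1 sample the difference lay between 0.38 and 0.87. Of 11218 genes tested with limma, 6.33% were called at an adjusted p under 0.05, 2.23% higher and 4.10% lower in AAV-Shisa3. Among the called genes 35.2% were higher, which became 64.1% with each sample centred on its median, a scaling that moved the median difference over all genes from -0.10 to 0.01. Of the members, 2 were called higher, Nfkb1 and Ikbkg, and 0 lower, while at an unadjusted p under 0.05 limma gave 3 higher and 2 lower, beside 8.21% and 19.8% of all genes.

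Nfkb1 measured 119.9 and 143 TPM with GFP and 196 and 186 TPM with Shisa3. It was 1.45-fold higher by group means, and both AAV-Shisa3 samples lay above both controls (log2 difference 0.54, SE 0.10, adjusted p = 0.0418, limma). Ikbkg measured 36.0 and 35.7 TPM with GFP and 50.8 and 52.7 TPM with Shisa3, 1.44-fold higher, again without overlap (log2 difference 0.52, SE 0.08, adjusted p = 0.0295, limma). Both calls were lost when limma was run without its trend (adjusted p = 0.0931 and 0.0696), with no filter on low values, or without any 1 sample. Leaving out 1 sample gave differences of 0.41 to 0.67 for Nfkb1 and 0.49 to 0.54 for Ikbkg. Over all genes, 1 was called higher and 4 lower without the trend, and 0 with no filter. A call lost under those settings is thus not particular to these members or to the listed genes below. Both calls were kept with centring. Ikbkg shares 418 bases of exon with G6pdx on the opposite strand, and whether strand was used in counting is not given in the sources used here. G6pdx measured 222 and 247 TPM with GFP and 272 and 243 TPM with Shisa3, groups that overlapped.

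The other 8 members did not pass the test. Rel measured 8.54 and 9.82 TPM with GFP and 11.7 and 12.7 TPM with Shisa3 (0.38, SE 0.13, adjusted p = 0.126, limma), and Relb had 46.1 and 49.9 against 52.0 and 57.2 TPM (0.18, adjusted p = 0.261, limma). Rela measured 96.0 and 98.3 TPM with GFP and 78.1 and 86.5 TPM with Shisa3 (-0.24, SE 0.08, adjusted p = 0.140, limma), and Nfkb2 had 73.5 and 82.1 against 63.3 and 68.1 TPM (-0.24, adjusted p = 0.164, limma). With each sample centred on its median the differences became -0.12 for both Rela and Nfkb2 (adjusted p = 0.399 and 0.404, limma), 0.49 for Rel and 0.30 for Relb. Without any 1 sample that of Relb lay between 0.11 and 0.25. The first pair lay above the controls and the second below them, in both samples of each group. In all, 4 members had AAV-Shisa3 samples above the controls without overlap (Nfkb1, Rel, Relb and Ikbkg), beside 18.2% of genes tested, and 2 below (Rela and Nfkb2), beside 41.2%.

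The remaining kinases overlapped between the groups. Ikbke measured 457 and 519 TPM with GFP and 486 and 509 TPM with Shisa3, a log2 difference of 0.031 with a 95% interval of -0.18 to 0.24. Tbk1 had 67.3 and 70.4 against 65.4 and 75.2 TPM, a difference of 0.026 (-0.21 to 0.26). Ikbkb had 52.1 and 59.5 against 57.7 and 63.0 TPM, a difference of 0.11 (-0.13 to 0.36). Chuk had 22.2 and 26.1 against 21.6 and 22.7 TPM, a difference of -0.12 (-0.40 to 0.16). Without any 1 sample the difference lay between 0.020 and 0.21 for Ikbkb and between -0.23 and -0.0038 for Chuk, and with centring that of Chuk was -0.0017. Each interval gives the differences compatible with these 2 samples per group, in both directions, and is not a limit of detection.

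**Figure D3:**
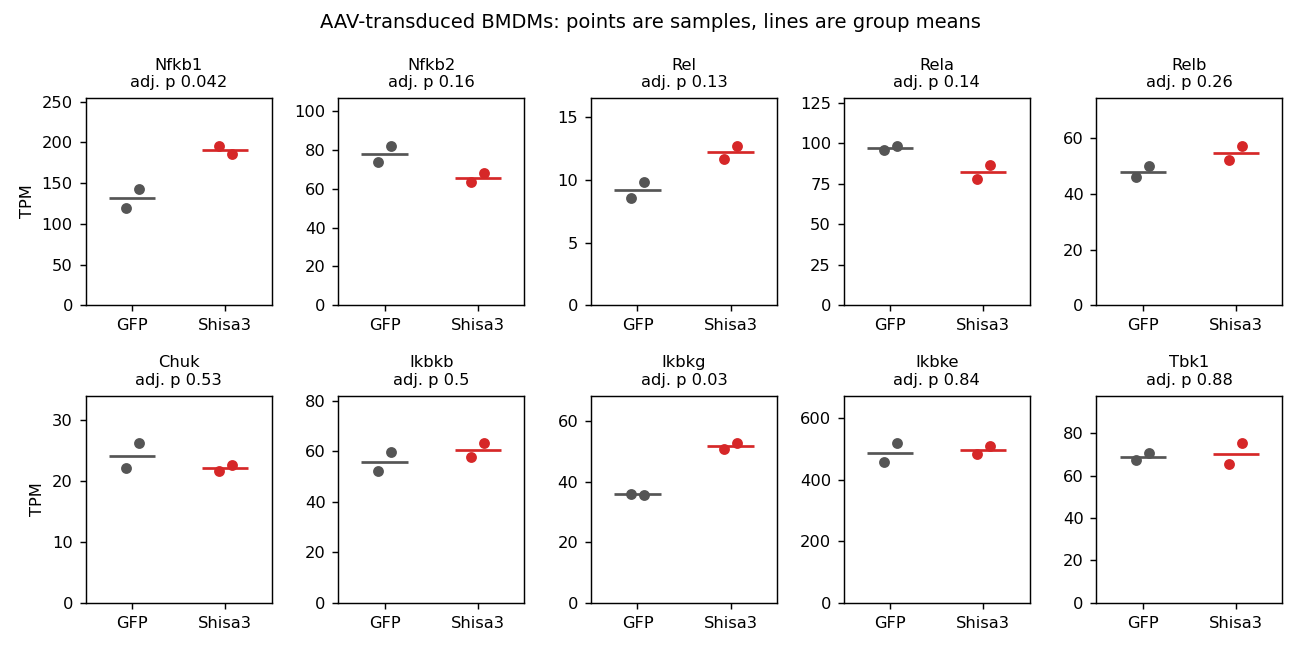
TPM of the 10 members in the AAV-GFP and AAV-Shisa3 samples, with 1 point per sample, a line at the group mean of 2 samples, and the limma adjusted p above each panel; every axis starts at 0. Nfkb1, Rel, Relb and Ikbkg show both AAV-Shisa3 points above both AAV-GFP points, and Rela and Nfkb2 show both below.

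The ratios within a sample were also compared. The ratio of Nfkb1 to Rela was 1.249 and 1.46 with GFP and 2.51 and 2.16 with Shisa3, a difference of 0.79 on the log2 scale. That of Rel to Rela was 0.0890 and 0.0998 against 0.150 and 0.147, a difference of 0.65, and that of Relb to Rela was 0.480 and 0.507 against 0.665 and 0.662, a difference of 0.43. All 3 ratios were higher in both AAV-Shisa3 samples than in either control, and each comparison had an exact permutation p of 0.33, which is the smallest that 2 against 2 samples can give. They share the denominator Rela, which itself lay below the controls in both AAV-Shisa3 samples. The ratios are therefore not 3 separate results, and no share over all gene pairs was computed beside them. The ratio of Nfkb2 to Rela overlapped between the groups, with a difference of -0.0016, as did that of Ikbke to Tbk1, with a difference of 0.0052. Those of Chuk to Ikbkb and of Ikbke to Ikbkb were lower in both AAV-Shisa3 samples, by -0.24 and -0.085. Without any 1 sample the difference for Ikbke to Ikbkb lay between -0.11 and -0.055. Of the summed TPM of the Rel family, Nfkb1 made up 34.8% and 37.4% in AAV-GFP and 48.9% and 45.4% in AAV-Shisa3, and Rela 27.9% and 25.7% against 19.5% and 21.04%.

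**Figure D4:**
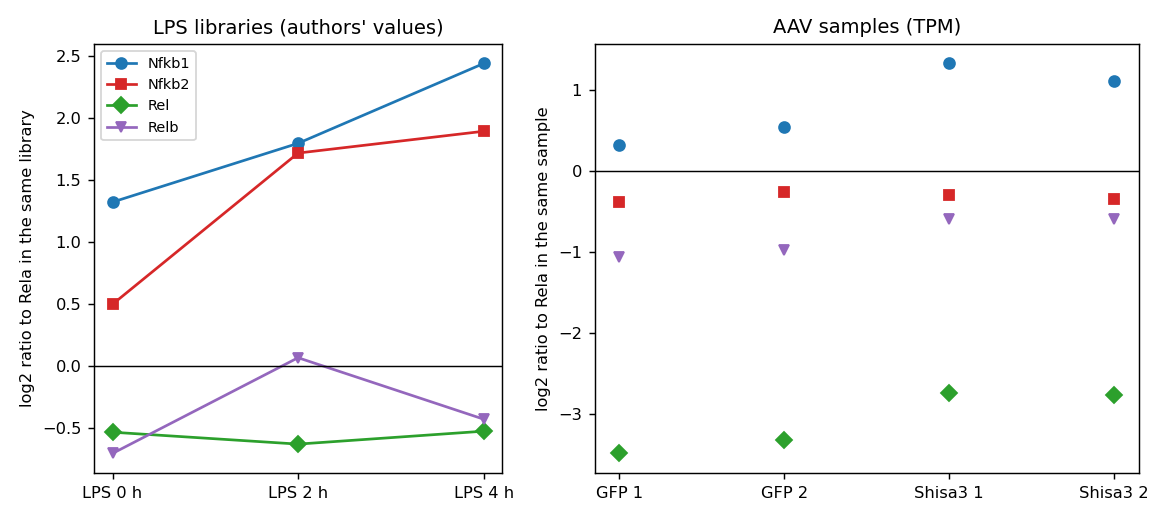
Log2 ratio of Nfkb1, Nfkb2, Rel and Relb to Rela within each of the 3 LPS libraries (left, authors' values, not corrected for gene length, so only changes along a line compare) and each of the 4 AAV samples (right, TPM). After LPS the Nfkb1 and Nfkb2 ratios are higher and the Rel ratio is nearly flat, and in AAV-Shisa3 the Nfkb1, Rel and Relb ratios lie above those in AAV-GFP. All share the denominator Rela, which was itself lower in both AAV-Shisa3 samples.

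In the AAV-GFP controls the levels in TPM spanned 53.1-fold. Ikbke was highest at 488 ± 43.7 TPM (SD, n = 2) and made up 47.1% of the sum over the 10 genes, followed by Nfkb1 at 132 ± 16.5, Rela at 97.2 ± 1.68, Nfkb2 at 77.8 ± 6.07, Tbk1 at 68.9 ± 2.22, Ikbkb at 55.8 ± 5.20, Relb at 48.0 ± 2.70, Ikbkg at 35.9 ± 0.219, Chuk at 24.1 ± 2.79 and Rel at 9.18 ± 0.905. No neighbours in this order overlapped within the controls. Over all 4 samples Rela and Nfkb2, Nfkb2 and Tbk1, Ikbkb and Relb, and Relb and Ikbkg overlapped. Per length, Rel was therefore the lowest of the 5 subunits in both experiments, whereas Ikbkb was the lowest member in the LPS experiment at 0 h and sixth in AAV-GFP. Without the division by exon length neither of these genes was the lowest at 0 h in the LPS experiment. These 2 tables were normalized separately and their lengths were set differently, so levels were not compared between them.

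**Figure D5:**
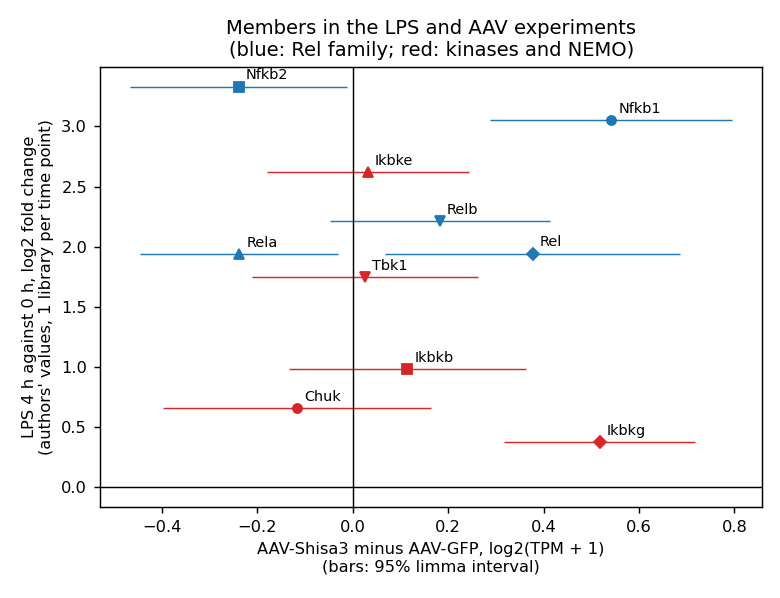
Log2 fold change at 4 h of LPS in the authors' values (vertical, 1 library per time point) against the AAV-Shisa3 minus AAV-GFP difference in log2(TPM + 1) (horizontal, bars are 95% limma intervals) for the 10 members. Nfkb2 has the largest LPS fold and a negative AAV difference, Nfkb1 is high on both axes, and Ikbkg has the smallest LPS fold and an AAV difference of 0.52.

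Set side by side, the 2 experiments gave different orders for these genes. Nfkb1 was 8.31-fold higher at 4 h of LPS and was called in AAV-Shisa3, whereas Nfkb2 was 10.1-fold higher after LPS and had an AAV difference of -0.24. Ikbke was 6.15-fold higher after LPS with an AAV difference of 0.03. Ikbkg was called in AAV-Shisa3 and was within 2-fold at both LPS times. The difference between the experiments was not tested, since the LPS libraries have no replicates.

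The other genes of the pathway were described by 5 lists with 46 genes, all of them tested in both tables. As background for the LPS counts, 20.5% of all genes at 2 h and 22.2% at 4 h were higher and 24.7% and 23.6% lower in the authors' values, and 13.7% and 13.8% were higher and 40.3% and 44.3% lower with library totals. For the AAV calls it was 2.23% higher and 4.10% lower, and for an unadjusted p under 0.05 it was 8.21% and 19.8%. The IκB proteins, which hold NF-κB dimers or modify their action on DNA, lay 2-fold or more above 0 h in 6 of 6 genes at 2 h and in 5 of 6 at 4 h (5 and 5 with library totals). Nfkbiz and Nfkbia were highest, with log2 changes of 5.25 and 5.15 at 2 h and 4.32 and 4.62 at 4 h. The smallest were Nfkbid and Nfkbib at 2 h (1.63 and 3.36) and Nfkbid and Bcl3 at 4 h (0.19 and 2.76). Between 2 h and 4 h all 6 were lower, from -0.35 for Nfkbib and -0.53 for Nfkbia to -1.04 for Nfkbie and -1.44 for Nfkbid. In AAV-Shisa3, 2 of the 6 were called higher, beside 2.23% of all genes, and Nfkbid passed as well with centring, where 410 of the 11218 genes were called higher. At an unadjusted p under 0.05 limma gave 3 higher and 0 lower. Nfkbia, which encodes IκBα, had 562 and 563 TPM against 729 and 712 TPM (0.36, adjusted p = 0.0382, limma), and Bcl3, a nuclear partner of p50 and p52, had 130.2 and 151 against 228 and 202 TPM (0.61, adjusted p = 0.0343, limma). Both calls were lost without the trend (adjusted p = 0.107 and 0.0822, limma) and in each fit without 1 sample, where the lowest adjusted p in limma was 0.124 and 0.104.

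Of 9 genes for the assembly and editing of linear ubiquitin chains, 5 lay 2-fold or more above 0 h at both times (5 and 4 with library totals) and 0 lay 2-fold or more below it. Tnfaip3, which encodes the ubiquitin editor A20, and its binding partner Tnip1 led with log2 changes of 6.99 and 3.84 at 2 h and 6.45 and 3.50 at 4 h. At the other end, Cyld and Sharpin had -0.33 and 0.24 at 2 h, and Sharpin and Otulin -0.01 and 0.09 at 4 h. From 2 h to 4 h Tax1bp1 (1.39) and Cyld (0.43) had the highest log2 changes and Otulin (-0.69) and Tnfaip3 (-0.54) the lowest. In AAV-Shisa3, 0 of the 9 were called by limma, while at an unadjusted p under 0.05 limma gave 3 higher and 1 lower, beside 8.21% and 19.8% of all genes. Tnfaip3 measured 78.2 and 89.9 TPM with GFP and 107.4 and 117 TPM with Shisa3, with an adjusted p of 0.0671 in limma that became 0.0362 with centring.

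Of 9 genes of the non-canonical arm, which leads to p100 processing, 6 were at least 2-fold higher at both times (5 with library totals) and 1 lower. The receptors Cd40 and Tnfrsf1b led with 6.60 and 2.76 at 2 h and 7.08 and 3.27 at 4 h. Map3k14, which encodes the kinase NIK that acts on IKKα, was the one lower gene at -1.41 and -2.41, and the next lowest were Ltbr at 2 h (0.42) and Traf3 at 4 h (0.15). From 2 h to 4 h Tnfrsf1b (0.51) and Cd40 (0.48) were highest and Map3k14 (-0.998) and Traf3 (-0.53) lowest. In AAV-Shisa3 the same receptors were called higher, 2 of the 9 genes beside 2.23% of all genes, while at an unadjusted p under 0.05 limma gave 2 higher and 3 lower, with a median log2 difference of -0.087 over the list. Cd40 had 113 and 99.6 TPM against 209.9 and 180.1 TPM (0.86, adjusted p = 0.0216, limma), and Tnfrsf1b had 546 and 549.7 against 763 and 744 TPM (0.46, adjusted p = 0.0242, limma). Both calls were lost without the trend (adjusted p = 0.0597 and 0.0791, limma) and in each fit without 1 sample, where the lowest adjusted p in limma was 0.0715 and 0.1002.

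Of 14 genes listed around the step from the receptors to IKK, 3 lay 2-fold or more above 0 h at 2 h and 6 at 4 h (3 and 3 with library totals), near the share of all genes at 2 h, and 1 was lower at each time (2 and 3 with library totals). The counts include Map3k8 (2.42 at 2 h and 2.39 at 4 h), which encodes TPL2, a kinase held by p105 and freed by IKK activity, so that it acts after IKK rather than before it. Irak2 and Myd88, a kinase and the adaptor of Toll-like receptor signalling, led with 3.04 and 2.69 at 2 h and 3.22 and 2.91 at 4 h. Tab1, a subunit of the TAK1 complex, was lowest at -3.52 and -1.82, followed by Irak4 at -0.47 and -0.97. From 2 h to 4 h Tab1 (1.69) and Ticam1 (0.74) were highest and Irak4 (-0.51) and Irak1 (-0.48) lowest. In AAV-Shisa3 Ripk1, an adaptor kinase of the tumour necrosis factor receptor, was called lower, with 57.0 and 57.3 TPM against 44.1 and 41.9 TPM (-0.40, adjusted p = 0.0466, limma), 1 of 14 genes beside 4.10% of all genes, a call lost with centring (adjusted p = 0.107, limma), without the trend (adjusted p = 0.0927, limma) and in each fit without 1 sample (lowest adjusted p = 0.151, limma). At an unadjusted p under 0.05 limma gave 0 higher and 2 lower.

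Of 8 partners of TBK1 and IKKε, 4 were at least 2-fold higher and 1 lower at both times (with library totals 4 higher at both, 2 lower at 2 h and 4 at 4 h). Irf7, an interferon regulatory factor, and the adaptor Optn led at 2 h (3.27 and 2.76), and Irf7 and the adaptor Tank at 4 h (4.72 and 3.21). Mavs, the adaptor of cytosolic RNA sensors, was lowest at -1.92 and -2.15, followed by Sting1 at -0.64 and -0.95. From 2 h to 4 h Irf7 (1.45) and Tank (1.27) were highest and Irf3 (-0.63) and Sting1 (-0.31) lowest. In AAV-Shisa3, 0 of the 8 were called by limma, while at an unadjusted p under 0.05 limma gave 1 higher and 2 lower, beside 8.21% and 19.8% of all genes.

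Markers of other cells were read beside these results. The summed level of 9 neutrophil genes came to 593 and 565 TPM with GFP and to 1092 and 683 TPM with Shisa3, with none at 0, and that of 9 macrophage genes was between 34766 and 38343 TPM. The summed level of 6 B cell genes was 30.4 and 30.0 TPM with GFP against 44.7 and 37.7 TPM with Shisa3, and that of 7 T and NK cell genes was 5.88 and 7.59 against 9.13 and 10.6 TPM, with 3 or 4 of the 7 at 0. That of 6 dendritic cell genes was 3.57 and 4.53 against 2.70 and 3.10 TPM, and that of 7 fibroblast genes lay between 10.3 and 17.5 TPM with overlap. The neutrophil, B cell and T and NK cell sums were thus higher, and the dendritic cell sum lower, in the group in which Nfkb1 and Ikbkg were higher, and their part in those results was not tested. In the LPS libraries the summed length-scaled level of the macrophage genes was 46110 at 0 h, 25992 at 2 h and 26164 at 4 h, that of the neutrophil genes lay between 1238 and 1389, and that of the B cell genes was 217.5, 61.7 and 39.5. The dendritic cell genes summed to 3.73, 6.24 and 19.0, the fibroblast genes to 11.6, 14.2 and 20.3, and the T and NK cell genes to 7.30, 7.93 and 3.39. The macrophage and B cell sums were thus lower and the dendritic and fibroblast sums higher at both LPS times, and the T and NK cell sum was lower at 4 h, and their part in the LPS results was not tested.

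In GENCODE M21 (GRCm38) Nfkb1 lies on chromosome 3 from 135584655 to 135691547, Rel on chromosome 11 from 23736847 to 23770970 and Relb on chromosome 7 from 19606217 to 19629438, all on the minus strand. Rela, Nfkb2 and Chuk share chromosome 19, with Rela from 5637483 to 5648130, Nfkb2 from 46304320 to 46312385 and Chuk from 44073335 to 44107480. Ikbkb lies on chromosome 8 from 22659212 to 22706589, Ikbkg on chromosome X from 74393290 to 74453854, Ikbke on chromosome 1 from 131254343 to 131279606 and Tbk1 on chromosome 10 from 121546455 to 121586787. Exons of Nfkb2 overlap those of AC114539.1 and Psd on the opposite strand over 830 bases, and exons of Ikbke overlap those of Gm28914 and Gm28913 over 224 bases. With strand use in counting unknown, reads over these stretches cannot be assigned to one gene of each pair.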

How the data were processed

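The labels place BMDM samples in 5 groups: LPS 0 h, 2 h and 4 h with 1 library each, and AAV-GFP and AAV-Shisa3 with 2 samples each. Libraries were made from total RNA, of which the paper and the labels give different input amounts, with the VAHTS Universal V6 kit. The submitters' processing notes name mm9 as the build, although the gene identifiers carry GENCODE version numbers. The aligner, the counter and the use of strand are not given in the sources used here.

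The deposited LPS table holds a signal, the reads of each gene over 1 scaling factor per library. This unit was inferred from the values, 100% of which were whole multiples of 1 step (tolerance 0.001), so the reads were recovered. No count test could be run on them, since no group had replicates. The 95% intervals printed for changes and ratios of reads cover counting error only, and shares of the Rel family carry none. Log2 changes of genes and linear folds with library totals were taken on log2(value + 1), which understates low genes, for genes whose mean reached 1. Linear folds in the authors' values and the within-library ratios were taken without the added 1.

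The AAV values deposited by the authors sum to between 999778 and 999818 per sample and were read as TPM. The unit is not named in the table and the depth is unknown. Group differences in log2(TPM + 1) were fitted with limma (trend on) over the 11218 genes whose mean reached 1, at a Benjamini-Hochberg adjusted p of 0.05. The design had a branch for counts, which was not needed. Within-sample ratios were compared by an exact two-sided permutation test over 4 samples (7 ratios).

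Positions and exon lengths came from GENCODE M21, which matched 99.2% of the LPS identifiers (83.8% in the same version). Members and lists were chosen with earlier results of these data known. Named genes were all members, the 3 nearest patterns of each member past 2-fold, the 2 highest and 2 lowest of each pathway list per LPS comparison, and those that passed in the AAV comparison. Map3k8 after LPS, and Tnfaip3, G6pdx, Shisa3, Nfkbid and Map3k14 in the AAV comparison, were added beside this rule. Alternatives were another variance model, scaling, filter, pseudocount, block or left-out sample. The limma step was checked on simulated data. R 4.3.3, limma 3.58.1, edgeR 4.0.16 (TMM factors only), Python 3.11.15, scipy 1.17.1, numpy 2.4.6, matplotlib 3.10.9 and pandas 2.3.3 were used.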

Additional observations from a re-analysis of the deposited data

How the results depend on the processing

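The LPS counts of members past 2-fold stayed within 1.5 times of the values given, from 6 to 8 at 2 h and from 6 to 9 at 4 h, with the scaling, and did not move with the pseudocount or filter. The 2 members called higher in AAV-Shisa3 became 0 with limma without the trend, with no filter on low values and in each fit that left out 1 sample. Over all genes tested, limma called 250 higher and 460 lower. This became 1 and 4 without the trend, 410 and 230 with centring and 0 and 0 with no filter (1118 and 2411 at an unadjusted p under 0.05). Leaving out 1 sample gave from 0 to 27 higher and from 0 to 7 lower (from 616 to 798 and from 1263 to 1712 at an unadjusted p under 0.05), where the lone sample of a group is assumed to vary like the others. With the replicate number as a block the counts were 424 and 851 and the adjusted p from limma was 0.0325 for Nfkb1 and 0.0252 for Ikbkg. The block also brought Shisa3 (0.0287), Tnfaip3 (0.0308), Map3k14 (0.0455) and Nfkbid (0.0478) under the threshold, and turned no other call of a member or listed gene. With 2 pairs, correlated at 0.188, the samples share only a number. The direction turned in leave-one-out fits for Ikbke (-0.060 to 0.12) and Tbk1 (-0.073 to 0.12), and for the ratios of Ikbke to Tbk1 (-0.061 to 0.072) and Nfkb2 to Rela (-0.064 to 0.060). Other ratios kept their direction. Depth is known for the LPS reads only, and 1 library per time point leaves no check on those folds.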
